A study of Mus musculus with 6 samples.

Results

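The cadherins and protocadherins, the adhesion receptors by which cells of one kind hold to each other, were compared between Col6a1+ and Col6a1- cancer-associated fibroblasts (CAFs) of mouse colonic adenomas. Members were the protein-coding genes whose symbols start with Cdh, Cdhr or Pcdh followed by a number, with the alpha, beta and gamma protocadherins of the gene clusters included. This gave 96 of the 49548 genes in the deposited table, of which 39 lie outside the clusters and 57 within them. The rule picks members by name alone and uses no measured value, but it was set with earlier results of these data known.

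All mice carried Col6a1-cre and the Rosa26-mTmG reporter on a C57/BL6 background, and adenomas were induced with azoxymethane and dextran sodium sulfate (AOM/DSS), a model of colitis-associated cancer. Cells without CD45, EpCAM, CD31 and Ter119, the markers of immune, epithelial, endothelial and erythroid cells, were sorted into GFP+ cells, in which Cre had been active (Col6a1+ CAFs, 3 libraries), and Tomato+ cells, in which it had not (Col6a1- CAFs, 3 libraries). According to the study's methods young adult mice of both sexes were used, and each library was a pool of tumors from several mice. In the gut this Cre line marks, above all, fibroblasts with high PDGFRa and cells around vessels, so the Col6a1+ group can hold both, and the Col6a1- group is every other cell that passed the negative gates. No untreated or tumor-free sample was used here, so all values below are differences between these 2 sorted groups.

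Classical cadherins bind a cadherin of the same kind on the neighboring cell in the presence of calcium. Inside the cell their tails hold p120 and beta-catenin, and alpha-catenin and vinculin link that complex to actin. E-cadherin is the adherens junction cadherin of the gut epithelium, N-cadherin and cadherin-11 are those of mesenchymal cells, and VE-cadherin is that of endothelium. Protocadherins are the larger branch of the family and lack the catenin-binding tail. The clustered alpha and gamma genes each join their own variable first exon to the same 3 constant exons, and the nonclustered delta protocadherins are single genes studied mostly in the nervous system.

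Of the members that differed between the groups by the test below, the promoter sequences of Pcdh18, Pcdh19 and Cdh26 are shown so that the start regions of 3 genes higher in Col6a1+ CAFs can be read beside their values. Each is the RefSeq sequence of build GRCm38.p6 from 250 bases before to 50 bases after the start, written along the gene's own strand. Capitals mark a CCAAT box (CCAAT, or ATTGG where it lies on the other strand) and a GC box (GGGCGG or CCGCCC).
Pcdh18: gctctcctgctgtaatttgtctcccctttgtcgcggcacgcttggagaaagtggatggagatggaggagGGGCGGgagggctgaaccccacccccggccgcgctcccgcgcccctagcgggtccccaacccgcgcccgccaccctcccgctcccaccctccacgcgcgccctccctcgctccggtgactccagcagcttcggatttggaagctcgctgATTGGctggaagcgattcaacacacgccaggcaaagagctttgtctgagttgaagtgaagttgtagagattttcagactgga
Pcdh19: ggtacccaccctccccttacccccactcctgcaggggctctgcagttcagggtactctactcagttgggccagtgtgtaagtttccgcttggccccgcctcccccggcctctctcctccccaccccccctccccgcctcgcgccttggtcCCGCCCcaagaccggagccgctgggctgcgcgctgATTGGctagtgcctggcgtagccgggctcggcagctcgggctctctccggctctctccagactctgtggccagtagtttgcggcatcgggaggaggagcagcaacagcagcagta
Cdh26: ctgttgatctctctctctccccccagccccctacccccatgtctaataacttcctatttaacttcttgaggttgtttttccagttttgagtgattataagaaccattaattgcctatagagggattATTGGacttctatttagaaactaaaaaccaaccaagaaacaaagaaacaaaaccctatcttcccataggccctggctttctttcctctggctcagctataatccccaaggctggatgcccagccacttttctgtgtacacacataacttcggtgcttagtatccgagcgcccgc
They lie at chr3:49757267-49757566 (minus strand), chrX:133688944-133689243 (minus strand) and chr2:178430265-178430564 (plus strand), in that order. The Pcdh18 and Pcdh19 promoters each held 1 CCAAT box, whose first base lay 32 and 65 bases before the start, and 1 GC box, at 181 and 100 bases before it. The Cdh26 promoter held 1 CCAAT box, at 124 bases, and no GC box. A CCAAT box was found in 37.4% of the 32851 promoters of the RefSeq table, a GC box in 35.7%, and both in 12.8%, searched on both strands. The Pcdh18 and Pcdh19 promoters had 23 and 18 CpG dinucleotides and a GC content of 63% and 67.7%, whereas that of Cdh26 had 4 CpG and 44%. The median over all promoters was 7 CpG, with quartiles of 3 and 20. These are letters in a window and no measurement of binding.

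The RNA was read by 3′ mRNA sequencing (QuantSeq), in which each transcript gives reads from its 3′ end, so counts do not grow with transcript length. Every value below is a normalized count per gene and library, that is, a count adjusted by the authors for differences between libraries. Values are listed in the order of replicates 1, 2 and 3. The sums ranged from 3172312 to 3425249 normalized counts in Col6a1+ and from 3039152 to 3282417 in Col6a1- CAFs. Col6a1+ replicate 1 stood apart, with 14530 genes detected against 18770 to 20511 in the other libraries. Of the 96 members it held 64, and 16 members were at 0 there but above 0 in both other Col6a1+ libraries. As for the sort, the summed count of 6 pan-fibroblast genes was 37468 to 41177 in Col6a1+ and 6799 to 13785 in Col6a1- CAFs, and all 10 epithelial marker genes were detected in each library despite the EpCAM gate. The summed count of 7 immune genes was 32 to 47 and 145 to 161, with Ptprc, the gene of CD45, at 0 in 2 Col6a1+ libraries. In sorted bulk RNA, fewer cells of a type and less RNA per cell cannot be told apart.

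Of the 96 members, 88 were detected in at least 1 library and tested, 45 were detected in all 6, and 9 of those tested never exceeded 3 normalized counts. With limma on log2 values, adjusted over 26402 genes by the Benjamini-Hochberg method, 25 members were higher in Col6a1+ CAFs and 1 was lower at an adjusted p under 0.05. The same test called 2.66% of all genes higher and 1.96% lower. The count of 25 is not one of independent genes, since 21 of these rows are the gamma protocadherins, which hold the same reads. With the alpha and the gamma cluster taken as 1 set of reads each, 63 sets remained, 55 were tested, and 5 were higher (Cdh2, Cdh26, Pcdh18, Pcdh19 and the gamma cluster) and 1 lower (Cdh1). Every Col6a1+ library was above every Col6a1- library in 11 of the 55 sets and below in 4, while over all genes such separation was found for 7.91% and 11.6%. At an unadjusted p under 0.05 with a log2 fold change beyond 1 in size, 8 sets were higher and 6 lower, against 6.09% and 8.61% of all genes. The median log2 fold change (Col6a1+ minus Col6a1- CAFs) was 0.33 over the 55 sets and -0.27 over all genes tested.

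The same replicate number in both groups was treated as an alternative block in the fit. With it, none of the 88 members passed an adjusted p of 0.05. At an unadjusted p under 0.05, 41 were higher and 5 lower, with each alpha and gamma row counted by itself. Without the block, 41 were higher by that rule, and 8 with the alpha and gamma clusters as 1 set of reads each. Rgs5 and Notch3, with log2 fold changes of 6.16 and 5.77, also had a limma adjusted p of 0.0612 under the block, as did Cdh1 and Pcdh19. The Benjamini-Hochberg method can give genes with different p-values the same adjusted p, so this tie does not show equal evidence. Why the block removed the calls was not tested. The limma-voom fit without the block called 25 members higher and 1 lower. When the block was used on the 13515 genes that averaged 10 or more normalized counts, 25 members were higher and 3 lower. Of these 25, 21 were the gamma rows, which are 1 set of reads. Every cluster row was counted by itself in both fits with the block. The shares over all genes under the block are not given here. Each called member is therefore given with its adjusted p under the block.

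**Figure D1:**
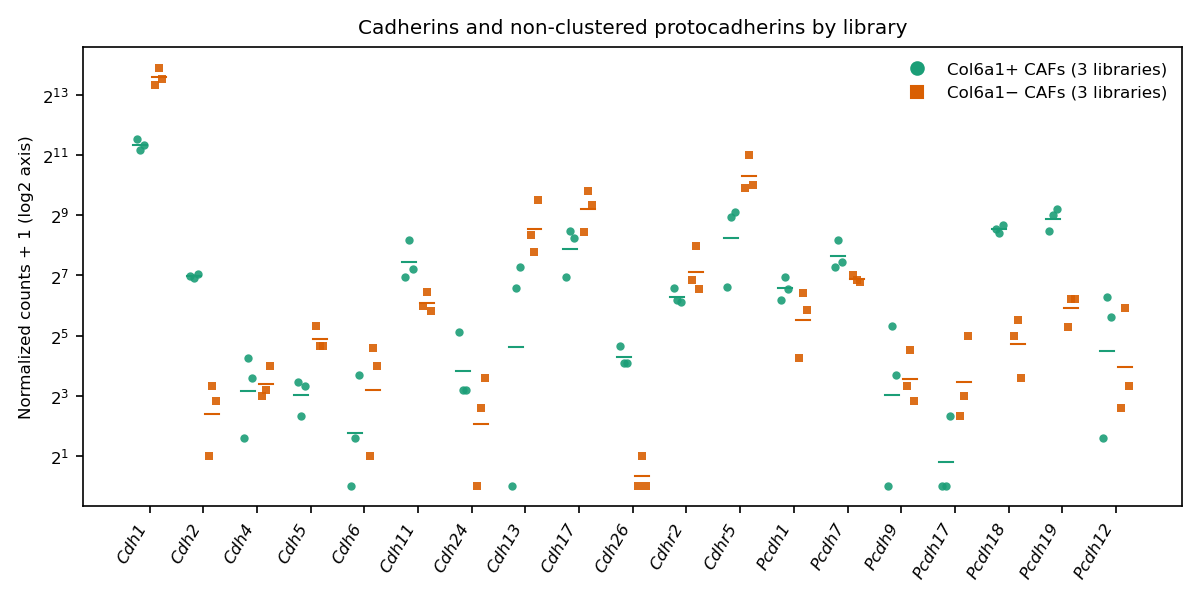
Normalized counts plus 1 on a log2 axis for the 19 named cadherins and nonclustered protocadherins, with 1 point per library (circles for Col6a1+, squares for Col6a1- CAFs) and a line at the mean of the 3 log2 values. Cdh2, Cdh26, Pcdh18 and Pcdh19 sit above in all Col6a1+ libraries and Cdh1 below in all of them, while Cdh13, Pcdh9 and Cdh6 are at 0 in Col6a1+ replicate 1.

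Among the type I classical cadherins, the E-cadherin gene Cdh1 was lower and the N-cadherin gene Cdh2 higher in Col6a1+ CAFs. Cdh1 (chr8:106603351-106670246, plus strand, mm10) had 2999, 2344 and 2580 normalized counts in Col6a1+ CAFs and 10493, 15452 and 11963 in Col6a1- CAFs. Every Col6a1+ library lay far below every Col6a1- library, and the transcript was abundant in both groups. The means were 2641 ± 332 (SD, n = 3) and 12636 ± 2547 (SD, n = 3), which is 4.78-fold lower in Col6a1+ CAFs. The log2 fold change was -2.25 (SE 0.28, 95% interval -2.87 to -1.62, limma adjusted p = 0.00212). The adjusted p was 0.0612 with the replicate block. Leaving out replicate 1 of the Col6a1- CAFs gave 0.058, and leaving out their replicate 3 gave 0.0503.

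The epithelial markers moved with Cdh1. All 10 had a negative log2 fold change (median -2.04) and 7 passed the test, with a summed count of 2544 to 3103 in Col6a1+ and 8813 to 15577 in Col6a1- CAFs, and none was at 0 in any library. Epcam, the surface protein of the negative gate, had 1074, 884 and 615 normalized counts in Col6a1+ and 3107, 4129 and 3730 in Col6a1- CAFs. Taken per Epcam count within a library, Cdh1 was 2.65 to 4.20 in Col6a1+ and 3.21 to 3.74 in Col6a1- CAFs, ranges that overlap. Per count of Krt8, a keratin of simple epithelia, it was 9.38 to 19.1 and 13.1 to 16.5, which overlap as well. The part of the epithelial markers in the Cdh1 result was not tested.

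Cdh2 (chr18:16588877-16809246, minus strand) had 125, 119 and 130 normalized counts in Col6a1+ CAFs and 1, 9 and 6 in Col6a1- CAFs. The 3 Col6a1+ libraries were close to each other and all Col6a1- libraries were in single digits. The log2 fold change was 4.60 (SE 0.72, 95% interval 3.00 to 6.19, limma adjusted p = 0.00613), with means of 125 ± 5.51 and 5.33 ± 4.04 (SD, n = 3 each). The adjusted p was 0.0717 with the replicate block, and it was 0.0552, 0.0663, 0.058 and 0.0755 without Col6a1+ replicate 2, Col6a1+ replicate 3, Col6a1- replicate 1 and Col6a1- replicate 3, respectively. Within a library the ratio of Cdh1 to Cdh2 counts was 19.7 to 24.0 in Col6a1+ CAFs and 1717 and 1994 in Col6a1- replicates 2 and 3, and it is not given for Col6a1- replicate 1, where Cdh2 had a single count.

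The mural cell markers, genes of pericytes and vascular smooth muscle, moved with Cdh2. All 8 passed the test in the same direction (median log2 fold change 4.93), with a summed count of 42545 to 91813 in Col6a1+ and 1173 to 2206 in Col6a1- CAFs and none at 0. Per count of Pdgfrb, the PDGF receptor of pericytes and fibroblasts, Cdh2 was 0.0600 to 0.0895 in Col6a1+ and 0.00870 to 0.103 in Col6a1- CAFs, so the ranges overlap, with 1 Col6a1- library holding a single Cdh2 count. Of 5 smooth muscle genes 3 passed the test, with sums of 1471 to 2068 and 92 to 525, and of the 6 pan-fibroblast genes 4 did. The part of these markers in the results for Cdh2 and the other members higher in Col6a1+ CAFs was not tested.

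**Figure D2:**
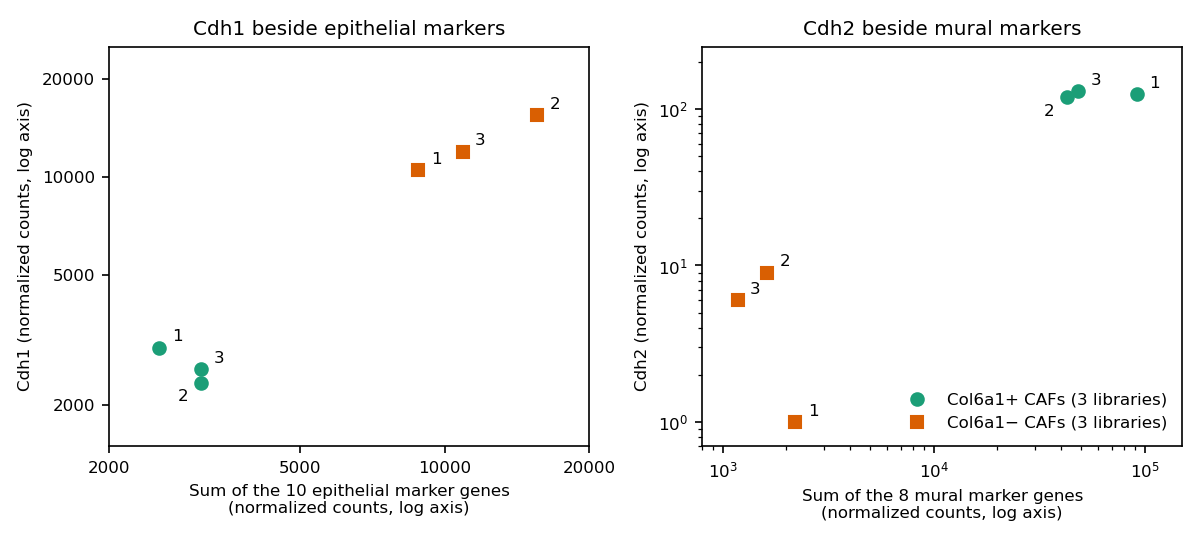
Cdh1 against the summed count of 10 epithelial markers (left) and Cdh2 against that of 8 mural markers (right), in normalized counts on log axes, with 1 numbered point per library (circles for Col6a1+, squares for Col6a1- CAFs). Cdh1 is 10493 or more in the 3 libraries with an epithelial sum of 8813 or more, and Cdh2 is 119 or more in the 3 libraries with a mural sum of 42545 or more.

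The remaining type I genes were sparse. Cdh4, which encodes R-cadherin, had 2, 18 and 11 normalized counts in Col6a1+ and 7, 8 and 15 in Col6a1- CAFs, and the groups overlapped (log2 fold change -0.25, SE 0.99, limma adjusted p = 0.906). Cdh3, the P-cadherin gene of basal epithelia, did not exceed 8 in any library. Cdh15, the cadherin of muscle, was at 0 in all 6, which allows up to 3 counts per library.

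No type II cadherin was called by limma, of 9 tested among 13. Of the 9, 2 separated the groups and passed at an unadjusted p under 0.05, 1 in each direction. Over all genes, 7.91% had every Col6a1+ library above every Col6a1- library and 11.6% had every one below. Cdh11, the mesenchymal cadherin of fibroblasts and osteoblasts, had 122, 292 and 149 normalized counts in Col6a1+ and 62, 86 and 55 in Col6a1- CAFs. All Col6a1+ libraries lay above all Col6a1- libraries, with a log2 fold change of 1.38 (SE 0.43, 95% interval 0.43 to 2.33) that missed the threshold (limma adjusted p = 0.108, and 0.0369 with the block over genes averaging 10 or more). Cdh5, the VE-cadherin gene of endothelium, had 10, 4 and 9 normalized counts in Col6a1+ and 39, 24 and 24 in Col6a1- CAFs. The groups did not overlap there either, and the log2 fold change of -1.84 (SE 0.76, 95% interval -3.51 to -0.16) missed the threshold (limma adjusted p = 0.252).

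The endothelial markers did not move as 1 list. Of the 9, 8 had a negative log2 fold change and none of these passed the test, while Tie1 was higher in Col6a1+ CAFs, and the summed count was 180 to 403 in Col6a1+ and 280 to 535 in Col6a1- CAFs. Pecam1, which encodes the CD31 of the gate, had 0, 21 and 27 normalized counts in Col6a1+ and 13, 64 and 44 in Col6a1- CAFs. In Col6a1+ replicate 1, Pecam1, Egfl7, Vwf, Emcn, Cldn5 and Tek were at 0 while Kdr had 112, Tie1 had 220 and Erg had 3 normalized counts. The part of the endothelial markers in the Cdh5 values was not tested.

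The other named type II genes overlapped between the groups. Cdh6, the K-cadherin gene, had 0, 2 and 12 normalized counts in Col6a1+ and 1, 23 and 15 in Col6a1- CAFs (log2 fold change -1.43, SE 1.31). Cdh24 had 34, 8 and 8 in Col6a1+ and 0, 5 and 11 in Col6a1- CAFs (log2 fold change 1.77, SE 1.17), and its highest value came from the library that stood apart. Cdh19, a cadherin of glial cells, had 7 normalized counts in 1 Col6a1+ library and at most 1 in each of the others. Cdh8, Cdh9, Cdh18 and Cdh20 were at 0 throughout, and Cdh7 and Cdh10 had 1 count in a single library.

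The cadherins of the intestinal epithelial surface had lower values in Col6a1+ CAFs, and none passed the test without the block. With the block over genes averaging 10 or more, Cdh17 and Cdhr5 were called lower beside Cdh1 (limma adjusted p = 0.0129 and 0.0159). Cdh17, the liver-intestine cadherin with a short tail, had 123, 354 and 300 normalized counts in Col6a1+ and 349, 904 and 649 in Col6a1- CAFs, with 1 Col6a1+ library just above the lowest Col6a1- library (log2 fold change -1.32, SE 0.47, 95% interval -2.35 to -0.29, limma adjusted p = 0.165). Cdhr5, which joins the tips of neighboring microvilli by binding Cdhr2, had 98, 497 and 556 in Col6a1+ and 954, 2061 and 1045 in Col6a1- CAFs. Its groups did not overlap, and the log2 fold change was -2.08 (SE 0.60, 95% interval -3.40 to -0.75, limma adjusted p = 0.0849). Cdhr2 had 95, 71 and 69 in Col6a1+ and 115, 251 and 93 in Col6a1- CAFs (log2 fold change -0.84, SE 0.44, limma adjusted p = 0.405). Here 1 Col6a1- library fell between the Col6a1+ values.

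All 4 cadherin-related genes that were detected had a negative log2 fold change. The 9 partners of the microvillus linkers went the same way, with a median of -1.83 and sums of 305 to 830 in Col6a1+ and 1844 to 2508 in Col6a1- CAFs. Of these, Ezr, the actin linker ezrin, passed the test, with 105, 263 and 337 normalized counts against 870, 1142 and 1033 (log2 fold change -2.26, limma adjusted p = 0.0129, and 0.0742 with the block). Leaving out Col6a1+ replicate 2 gave Ezr 0.0601, and leaving out replicate 1, 2 or 3 of the Col6a1- CAFs gave 0.117, 0.130 or 0.149. The epithelial marker sums given beside Cdh1 moved with all of them, and their part was not tested. Per Epcam count, Cdhr5 was 0.0912 to 0.904 in Col6a1+ and 0.280 to 0.499 in Col6a1- CAFs, whereas Cdhr2 was 0.0803 to 0.112 and 0.0249 to 0.0608, so the ranges of Cdhr2 did not overlap and were the higher in Col6a1+ CAFs.

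Cdh13, the T-cadherin gene, whose product is anchored to the membrane by a lipid and binds adiponectin, had 0, 95 and 153 normalized counts in Col6a1+ and 327, 217 and 725 in Col6a1- CAFs. The groups did not overlap, yet the spread within the Col6a1+ group was wide, and the log2 fold change of -3.93 had an SE of 1.51 (95% interval -7.26 to -0.59, limma adjusted p = 0.210). Without the library at 0, Col6a1+ replicate 1, the log2 fold change was -1.62 with an adjusted p of 0.173. Cdh26, a cadherin described in epithelium at sites of allergic inflammation, had 24, 16 and 16 normalized counts in Col6a1+ CAFs and 0, 1 and 0 in Col6a1- CAFs (chr2:178430531-178487366, plus strand). It was at or near 0 in every Col6a1- library, so Col6a1+ CAFs exceeded the floor of 3 counts per library by at least 6.22-fold. The limma adjusted p was 0.0384, with the library that stood apart giving the highest value. It was 0.108 with the replicate block, 0.0758 with a pseudocount of 0.1, 0.0479 without Col6a1+ replicate 1 and 0.0946 to 0.157 without any other library.

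**Figure D3:**
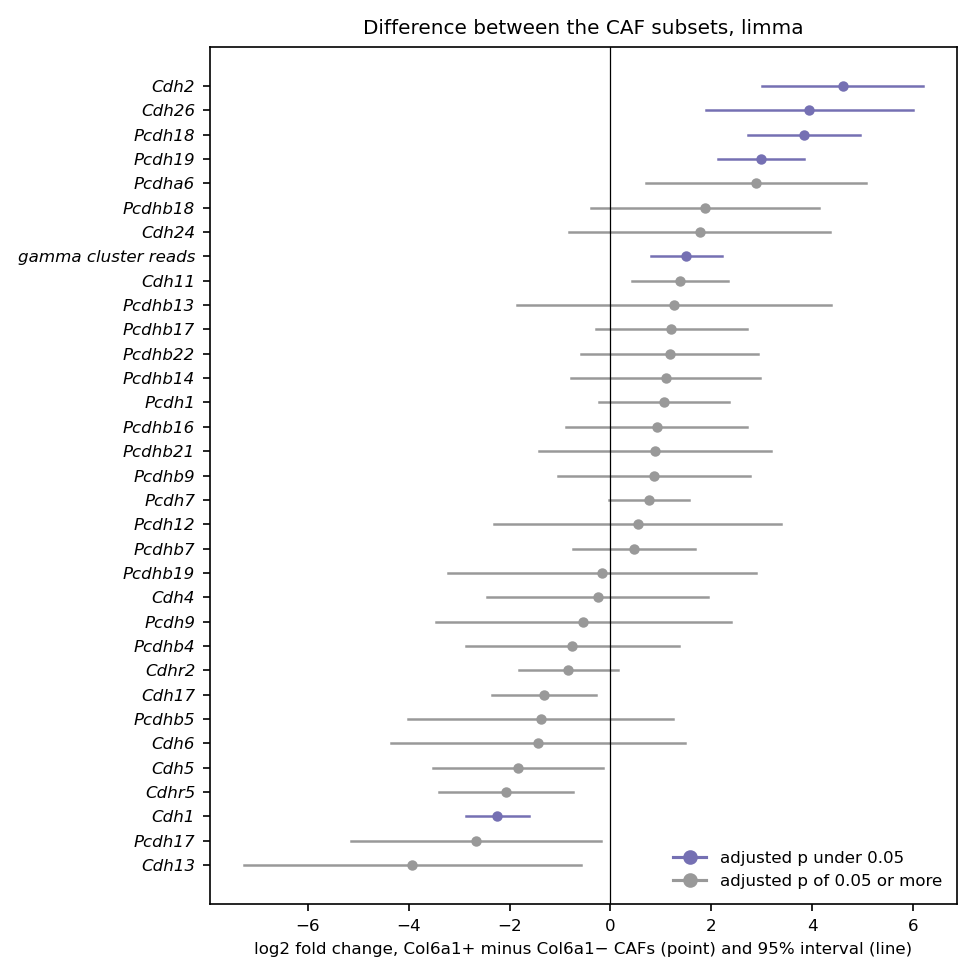
Log2 fold change (Col6a1+ minus Col6a1- CAFs, point) with its 95% interval (line) from limma for the named members, with the gamma cluster as 1 set of reads and the alpha cluster shown by Pcdha6, in order of size. Colored points, with an adjusted p under 0.05, are Cdh2, Cdh26, Pcdh18, Pcdh19 and the gamma cluster to the right of 0 and Cdh1 to the left.

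Of the 8 delta protocadherins tested, 2 were higher in Col6a1+ CAFs, where the same test called 2.66% of all genes higher. Pcdh18 (chr3:49743296-49757325, minus strand), one of the delta-2 genes, whose tails bind actin regulators, had 370, 337 and 405 normalized counts in Col6a1+ CAFs and 31, 45 and 11 in Col6a1- CAFs. Even its lowest Col6a1+ library was several times the highest Col6a1- library. The means were 371 ± 34.0 and 29 ± 17.1 (SD, n = 3 each), and the log2 fold change was 3.83 (SE 0.50, 95% interval 2.72 to 4.94, limma adjusted p = 0.00239). The adjusted p was 0.068 with the replicate block and 0.0792 without Col6a1- replicate 1, and it stayed between 0.026 and 0.0396 without any other library.

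Pcdh19 (chrX:133582860-133688987, minus strand), another delta-2 gene, known from an X-linked epilepsy, had 355, 514 and 587 normalized counts in Col6a1+ CAFs and 38, 74 and 73 in Col6a1- CAFs. These groups were also far apart, with means of 485 ± 119 and 61.7 ± 20.5 (SD, n = 3 each). The log2 fold change was 2.99 (SE 0.38, 95% interval 2.14 to 3.84, limma adjusted p = 0.00232). The adjusted p was 0.0612 with the replicate block and 0.0609 or 0.0508 when replicate 1 or 3 of the Col6a1- CAFs was left out. A noncoding gene on the other strand overlaps the start of Pcdh19 and was at 0 in all libraries. The mural marker sums given beside Cdh2 moved with both genes. So did the summed count of 5 enteric neuron markers, 195 to 370 in Col6a1+ and 59 to 113 in Col6a1- CAFs, but not each marker. Tubb3 alone passed the test. Uchl1 and Elavl4 overlapped between the groups, Snap25 did not exceed 3 counts, and Stmn2 had a negative log2 fold change. The sum of 6 glial markers, 55 to 73 and 29 to 76, overlapped between the groups. The part of the mural and neuronal markers in these results was not tested.

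The other delta protocadherins did not pass the test. Pcdh7 had 156, 292 and 173 normalized counts in Col6a1+ and 128, 113 and 109 in Col6a1- CAFs. The groups did not overlap, but the log2 fold change of 0.77 (SE 0.36, 95% interval -0.02 to 1.56) had a limma adjusted p of 0.330. Provisional transcripts of the annotation overlap Pcdh7 on the same strand, so its reads may be split among them. Pcdh1, known from epithelial cells of the airway, had 72, 124 and 93 in Col6a1+ and 18, 85 and 57 in Col6a1- CAFs (log2 fold change 1.06, SE 0.58, limma adjusted p = 0.429). Its groups overlapped.

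Pcdh17 was the only delta gene with a negative log2 fold change beyond 1 in size, at 0, 0 and 4 normalized counts in Col6a1+ and 4, 7 and 31 in Col6a1- CAFs (-2.67, SE 1.12, limma adjusted p = 0.265). The groups met at 4 counts. Pcdh9 had 0, 39 and 12 in Col6a1+ and 9, 22 and 6 in Col6a1- CAFs, Pcdh10 did not exceed 16, and Pcdh8 was detected in a single library. Of the remaining nonclustered genes, Pcdh12, which is known from endothelium, had 2, 76 and 48 in Col6a1+ and 5, 60 and 9 in Col6a1- CAFs (log2 fold change 0.54, SE 1.28). The values of Pcdh12 varied more within each group than between them, and Pcdh15 and Pcdh20 did not exceed 10 in any library.

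The gamma protocadherin cluster (21 genes, chr18:37661793-37841873) was higher in Col6a1+ CAFs as 1 set of reads. The reads that all 21 rows share came to 1512, 1047 and 1916 normalized counts in Col6a1+ CAFs and to 633, 537 and 389 in Col6a1- CAFs. The groups did not overlap, and the log2 fold change was 1.50 (SE 0.32, limma adjusted p = 0.0244). The adjusted p was 0.120 with the replicate block, it was 0.048 without Col6a1+ replicate 2, and it was 0.0841 to 0.157 without any other library.

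That the 21 rows are 1 measurement follows from the values. In 11 rows they were identical in all 6 libraries, and in the other 10 they exceeded the shared value by at most 19 normalized counts, so 0.0781% of the summed counts of the rows were not shared. In the GENCODE vM21 annotation all 21 genes have exons at chr18:37825021-37825079, chr18:37833265-37833353 and chr18:37839903-37841873, of 59, 89 and 1971 bases, and the last of these is their common 3′ end. Only 3 rows had more than 2 counts of their own in any library. Pcdhgc4 had 0, 6 and 5 such counts in Col6a1+ and 19, 16 and 2 in Col6a1- CAFs, Pcdhga12 had 0, 8 and 5 against 3, 3 and 12, and Pcdhgb2 had 0, 4 and 2 against 0, 0 and 0. The groups overlapped in all 3. Since nearly all counts were shared by the 21 rows, the rows do not tell which gamma isoforms were expressed.

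The alpha cluster (14 rows, chr18:36930184-37187661) was low. Its shared reads were 4, 9 and 9 normalized counts in Col6a1+ CAFs and 0, 2 and 0 in Col6a1- CAFs. The groups did not overlap, but the log2 fold change of 2.46 (SE 0.92) had a limma adjusted p of 0.191. The values were identical in 13 rows, and Pcdha6 had 4 and 7 further counts in Col6a1+ replicates 2 and 3 and none elsewhere (log2 fold change 2.88, SE 0.99, limma adjusted p = 0.152). All 14 genes share exons of 59, 89 and 2716 bases at chr18:37156155-37156213, chr18:37159265-37159353 and chr18:37184946-37187661. The symbol Pcdha11 stands for 2 gene identifiers in the table, and both rows hold the shared values.

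The beta cluster is built of separate genes without constant exons, 18 of 22 with a single exon, so its rows are separate counts. None of the 20 beta genes tested passed the test. At an unadjusted p under 0.05 with a log2 fold change beyond 1, Pcdhb11 alone was higher, against 6.09% of all genes. It had 0, 8 and 5 normalized counts in Col6a1+ CAFs and 0 in every Col6a1- library. Of the 20, 14 had a positive and 4 a negative log2 fold change, with a median of 0.61 and a range of -1.38 to 1.92. Over all genes tested, 10512 were positive and 15288 negative, with a median of -0.27. Summed over the cluster, the counts were 350, 281 and 286 in Col6a1+ and 215, 187 and 141 in Col6a1- CAFs, with means of 306 ± 38.5 and 181 ± 37.4 (SD, n = 3 each). The sums did not overlap, and no test was made on them.

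Single beta genes gave few counts. Pcdhb7 had 36, 71 and 95 normalized counts in Col6a1+ and 28, 72 and 44 in Col6a1- CAFs, and Pcdhb17 had 80, 45 and 24 against 32, 20 and 10. In both the groups overlapped. Pcdhb14 had 22, 17 and 16 against 13, 12 and 3, Pcdhb16 had 14, 14 and 15 against 6, 6 and 10, and Pcdhb18 had 29, 10 and 5 against 3, 1 and 4, and in these 3 genes all Col6a1+ libraries were above all Col6a1- libraries. Their limma adjusted p-values were 0.601, 0.625 and 0.423. Over all genes, 7.91% separated the groups in this direction. Pcdhb13 was high in 1 library only, with 53 normalized counts in Col6a1+ replicate 1 and 3 or fewer elsewhere. The other beta genes with a group mean of at least 10 were Pcdhb4, Pcdhb5, Pcdhb9, Pcdhb19, Pcdhb21 and Pcdhb22, with -1.38 to 1.17 on the log2 scale. Pcdhb21 and Pcdhb22 overlap on the same strand, so their counts may be split between them.

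**Figure D4:**
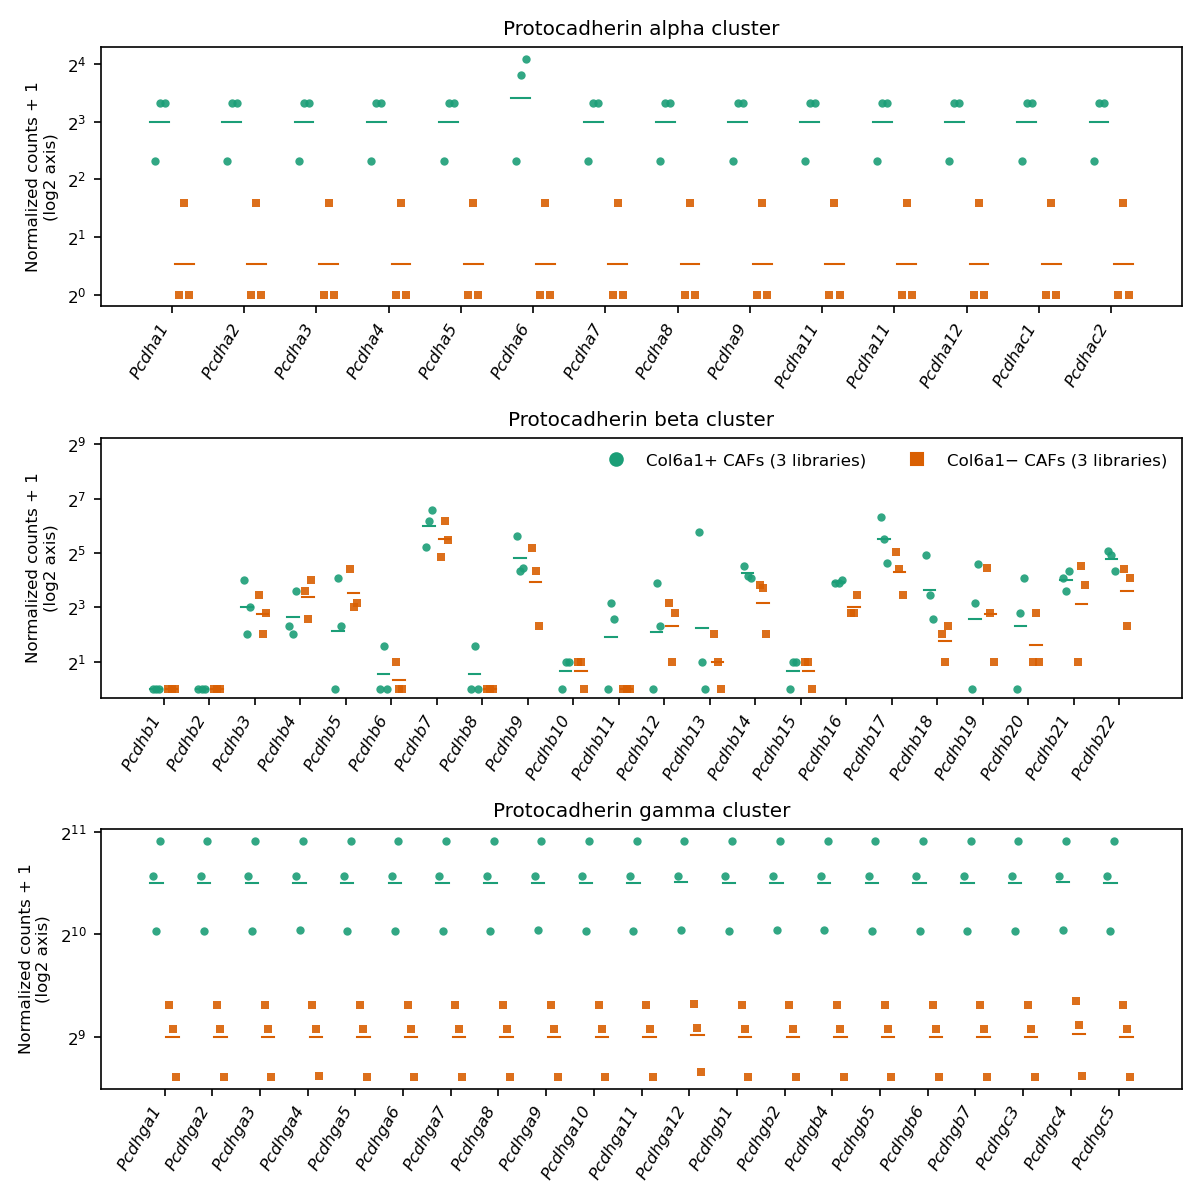
Normalized counts plus 1 on a log2 axis for each gene of the alpha, beta and gamma protocadherin clusters, with 1 point per library (circles for Col6a1+, squares for Col6a1- CAFs) and a line at the mean of the 3 log2 values. The gamma genes repeat 1 pattern, as do the alpha genes except Pcdha6, while the beta genes differ from each other.

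The proteins that hold cadherins at adherens junctions were read from a list of 24 genes. Of these, 1 was higher and 2 were lower in Col6a1+ CAFs at an adjusted p under 0.05, against 2.66% and 1.96% of all genes. The median log2 fold change was -0.65, beside -0.27 over all genes. Every Col6a1+ library was above all Col6a1- libraries in 3 genes and below in 7, against 7.91% and 11.6% of all genes. Vcl, which encodes the actin linker vinculin, had 530, 485 and 695 normalized counts in Col6a1+ and 128, 128 and 136 in Col6a1- CAFs. Its log2 fold change was 2.1 (SE 0.29, 95% interval 1.45 to 2.75, limma adjusted p = 0.00351), and vinculin also serves focal adhesions of contractile cells.

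Ctnnb1, the gene of beta-catenin, which binds the cadherin tail and acts in Wnt signaling, had 3281, 2567 and 2354 normalized counts in Col6a1+ and 7321, 5792 and 8141 in Col6a1- CAFs. All Col6a1+ libraries were lower (log2 fold change -1.37, SE 0.28, limma adjusted p = 0.0209). Adam10, the protease that cleaves E- and N-cadherin, had 106, 110 and 100 in Col6a1+ and 299, 226 and 245 in Col6a1- CAFs. The log2 fold change was -1.27 (SE 0.32, limma adjusted p = 0.0488). With the replicate block the adjusted p-values of Vcl, Ctnnb1 and Adam10 were 0.0612, 0.0754 and 0.110. With 1 library left out, Vcl had 0.0210 to 0.0717, Ctnnb1 had 0.0492 to 0.141 and Adam10 had 0.0534 to 0.155 as adjusted p, with Vcl losing the call without Col6a1- replicate 1 or 3, Ctnnb1 whenever a library other than Col6a1+ replicate 1 was left out, and Adam10 whichever library was left out.

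The other catenins did not pass the test. Ctnna1, the gene of alpha-catenin, had 581, 452 and 501 normalized counts in Col6a1+ and 580, 544 and 509 in Col6a1- CAFs. Its log2 fold change was -0.10 (95% interval -0.68 to 0.49, limma adjusted p = 0.862). Ctnnd1, the gene of p120-catenin, had 720, 333 and 558 against 1000, 847 and 663 (log2 fold change -0.69, SE 0.34, limma adjusted p = 0.360). Jup, which encodes plakoglobin, had 210, 331 and 248 against 324, 1463 and 1088 (log2 fold change -1.63, SE 0.50, limma adjusted p = 0.104, and 0.0195 with the block over genes averaging 10 or more). Both overlapped between the groups. The epithelial and mural marker sums given beside Cdh1 and Cdh2 moved with the partner genes that were lower and higher, and their part was not tested.

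**Figure D5:**
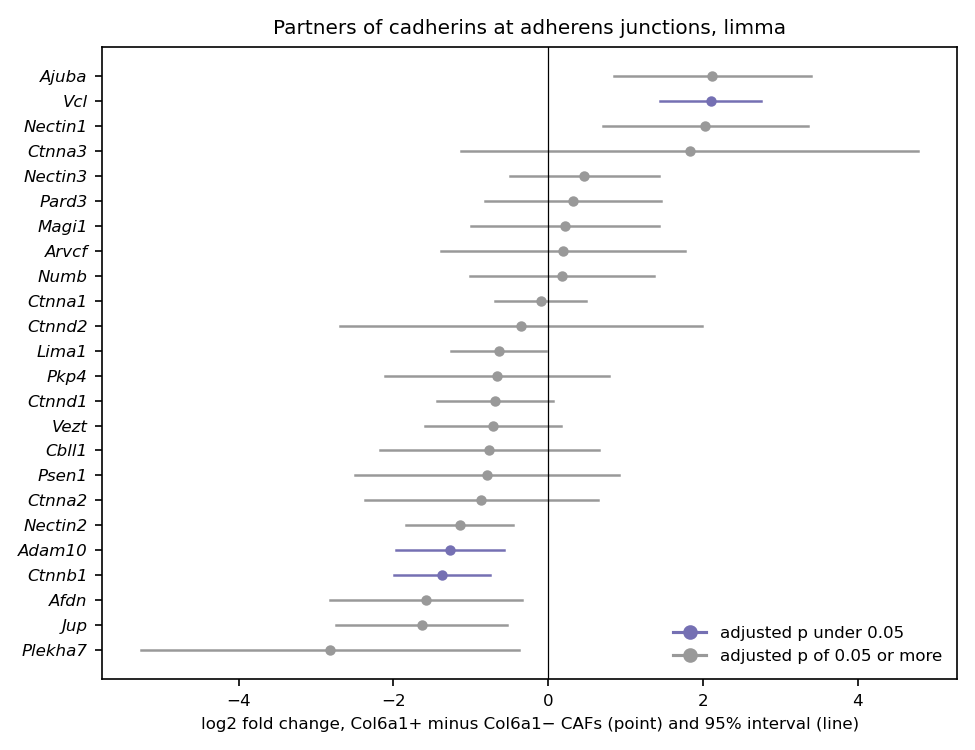
Log2 fold change (Col6a1+ minus Col6a1- CAFs, point) with its 95% interval (line) from limma for 24 partner genes of cadherins at adherens junctions, in order of size. Vcl is the only colored point (adjusted p under 0.05) to the right of 0, Ctnnb1 and Adam10 are those to the left, and Ctnna1 lies at -0.10.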

How the data were processed

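RNA of 6 libraries, 3 of Col6a1+ (GFP+) and 3 of Col6a1- (Tomato+) CAFs, was sequenced with QuantSeq 3′ chemistry on an Ion Proton, and the labels gave the groups and the replicate numbers. The authors mapped the reads to mm10 with TopHat2 and Bowtie2 and normalized gene counts with DESeq, and they deposited log2 values of the normalized count plus 1. These were whole normalized counts in 100% of values (tolerance 1e-06). Whether counting used strand is not given in the sources used here. Their own fold changes and p-values, and 6 further per-sample columns, were not used.

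The log2 values were fitted with limma 3.58.1 (R 4.3.3, eBayes with a trend; degrees of freedom 6.48 prior, 4 residual) over the 26402 genes that summed to 1 or more normalized counts, with Benjamini-Hochberg adjustment. Fold changes carry the pseudocount of 1 and understate those of low genes. Numbers of reads were not estimated here, and p-values measure only the spread between pooled samples. The method was tested on simulated data.

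Pairing by replicate number was checked over 13515 genes. Deviations from the group means correlated at 0.245, 0.125 and 0.144 between equal numbers and at -0.245 to 0.150 between different ones. These ranges overlap, so the check alone cannot tell whether equal numbers are pairs. The paper counts 3 samples for sequencing, each a pool of tumors, so libraries of both groups may come from the same pools. It does not state which libraries share a pool. The main fit took no account of pairing, and the replicate block was fitted as an alternative. The members named had an adjusted p under 0.05, a group mean of at least 10, or were Cdh1, Cdh2, Cdh5, Cdh11, Cdh17 or Cdhr5, and other members were given by count and range. Further beta and sparse genes were named after their values were seen. Partner genes named had an adjusted p under 0.05 or were Ctnna1, Ctnnb1, Ctnnd1 and Jup. Members and gene lists were chosen with earlier results of these data known. Coordinates are those of the deposited table on mm10, where 96 of 96 identifiers are in GENCODE vM21, and 27 member rows matched a RefSeq promoter. Alternatives were library size alone, a mean of at least 10, at least 10 in every library, limma-voom, a pseudocount of 0.1, the replicate block, unadjusted p-values and leaving out each library. The block restricted to genes averaging 10 or more and the collapsed clusters were added after seeing the data. Plots were drawn with Matplotlib 3.10.9. The result of 1 marker gene is not reported here.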

Additional observations from a re-analysis of the deposited data

How the results depend on the processing

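Against 25 members higher in Col6a1+ CAFs, 1 lower and 3 partner genes called, the replicate block called 0, 0 and 0. At an unadjusted p under 0.05 the block gave 41 members higher and 5 lower, with each alpha and gamma row counted by itself. By that rule 3 partner genes were higher and 7 lower, and shares over all genes under the block are not given here. Restricted to genes averaging 10 or more, the block called 25, 3 and 6. Library size alone gave 2 members lower, and at least 10 in every library gave 6 partner genes. The rule of unadjusted p-values gave 41, 6 and 9, with 21 gamma and 14 alpha rows among the 41. With each of these clusters as 1 set of reads, that rule gave 8 sets higher and 6 lower, against 6.09% and 8.61% of all genes. At an adjusted p under 0.05 with the alpha and gamma clusters collapsed, 5 sets were higher. Leaving out 1 library gave 0 to 22 members higher (4 without Col6a1+ replicate 1, 22 without replicate 2, 2 without replicate 3, and 0, 3 and 1 without Col6a1- replicates 1, 2 and 3), 0 to 1 lower (0 without Col6a1- replicate 1 or 3) and 0 to 2 partner genes. Without Col6a1- replicate 1, limma called no member, with 27 higher and 4 lower at an unadjusted p under 0.05, each cluster row again counted by itself. The fit then has fewer samples, and the part of that library itself was not tested. Directions turned only for genes never called, whose log2 fold changes ranged, as single libraries were left out, from -0.81 to 0.53 for Cdh4 (0.05 without Col6a1- replicate 3), -0.35 to 1.99 for Pcdh12 (also -0.02 and -0.14), -1.70 to 0.96 for Pcdh9, -0.50 to 2.38 for Pcdhb13, -1.17 to 1.12 for Pcdhb19 (also 0.68) and -0.17 to 1.59 for Pcdhb21. Cdhr5 passed with library size alone, and limma-voom changed no call of a named member. Of all log2 fold changes of named members under the alternatives, 382 kept direction and call, 26 lost the call, 4 gained it and 10 turned. The alpha cluster and most beta genes had few counts in each library, and each group had 3 libraries.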

Other observations

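Other genes of the cadherin superfamily, the large planar polarity cadherins, the calsyntenins and their partners, were read as a list of 15. In Col6a1+ CAFs none was higher and 1 lower by limma (adjusted p under 0.05), against 2.66% and 1.96% of all genes. At an unadjusted p under 0.05 and a log2 fold change beyond 1 in size, 1 was higher and 3 lower, against 6.09% and 8.61%. The median log2 fold change was -0.24, beside -0.27 over all genes. The called gene was Celsr1, a flamingo cadherin of planar cell polarity in epithelia, with 21, 14 and 15 normalized counts in Col6a1+ CAFs and 232, 88 and 118 in Col6a1- CAFs (log2 fold change -2.96, SE 0.52, limma adjusted p = 0.0106). The adjusted p was 0.0656 with the replicate block, 0.0315 without Col6a1+ replicate 1 and 0.0552 to 0.112 without any of the other 5 libraries. The epithelial marker sums, 2544 to 3103 against 8813 to 15577, moved with it, and their part was not tested.

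Fat1, the giant cadherin that also acts on actin, had 691, 332 and 312 normalized counts in Col6a1+ and 450, 324 and 452 in Col6a1- CAFs (log2 fold change 0.04, 95% interval -0.76 to 0.84). Its groups overlapped. Fjx1, related to a kinase that modifies Fat and Dachsous cadherins in the fly, had 26, 14 and 31 in Col6a1+ and 1, 4 and 1 in Col6a1- CAFs, and Clstn1, a calsyntenin of vesicle transport, had 281, 320 and 443 against 182, 194 and 165. In both all Col6a1+ libraries were the higher, and neither passed the test (limma adjusted p = 0.0981 and 0.143). These genes, apart from Celsr1, were named after their values were seen.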
